A study of Homo sapiens with 18 samples.

Results

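Transcripts of 10 subunits of the SWI/SNF chromatin remodelling complexes were followed in A1847 cells, an established line of high-grade serous ovarian cancer. The genes were taken by symbol: each of ARID1A, ARID1B, ARID2, SMARCA2, SMARCA4, SMARCB1, SMARCC1, SMARCC2, SMARCD1 and PBRM1 matched 1 Ensembl gene among the 57736 genes in the count table, and all 10 were among the 17317 genes that passed the filter on low counts. The study profiled 3 genotypes. They were cells wild type for both genes (labelled WT), cells edited with a CRISPR construct against CARM1 (koCARM1, here CARM1 knockout or KO) and cells carrying an shRNA against XBP1 (shXBP1). Each genotype received 5 μg/ml tunicamycin (TM) or vehicle (ctr) for 8 h, which gave 6 groups of 3 libraries. Both modified lines were made by lentiviral infection and puromycin selection. The sources do not say whether the knockout line is 1 clone, or whether the WT cells carried a control vector. A scramble control shRNA is listed among the paper's constructs. The paper's RNA sequencing methods name the WT cells only as control, without saying which construct, if any, they carried. The same WT libraries served both genotype comparisons. RNA came from whole cultures, so fewer cells expressing a gene and less RNA per cell cannot be told apart.

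SWI/SNF complexes use the energy of ATP to slide or eject nucleosomes and so open DNA to transcription factors. Each complex holds 1 of the alternative ATPases SMARCA4 (BRG1) or SMARCA2 (BRM) on a core with SMARCC and SMARCD subunits, and a targeting module. SMARCB1 is in the core of BAF and PBAF but not of the non-canonical form with BRD9. ARID1A or ARID1B marks the canonical BAF form, and ARID2 with PBRM1 marks the PBAF form. In ovarian cancer the complex is best known for loss of ARID1A in clear cell tumours. CARM1 is an arginine methyltransferase that methylates the SMARCC1 (BAF155) protein, and XBP1 is a transcription factor of the unfolded protein response, which tunicamycin sets off by blocking the glycosylation of proteins in the endoplasmic reticulum.

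Totals ran from 9367462 to 13917212 counts per library, and replicates of 1 group correlated at 0.986 to 0.989 over log2 CPM (the count scaled to library size with TMM factors). CARM1 knockout libraries stood apart from the rest. Their correlation with WT libraries was 0.730 to 0.769, against 0.961 to 0.987 between WT and shXBP1 libraries. CARM1 itself was at 162 ± 2.69 CPM (SD, n = 3) in WT cells with vehicle and at 74.2 ± 3.11 in knockout cells, and XBP1 was at 45.9 ± 4.50 CPM in WT and 25.4 ± 1.25 in shXBP1 cells. HSPA5, the main chaperone of the endoplasmic reticulum, rose with tunicamycin in each genotype, by 3.08 to 3.77 on the log2 scale. The knockout libraries also differed in lineage markers. PAX8, a marker of Müllerian epithelium, had 0 to 2 counts in the 12 other libraries and 465 to 840 in the 6 knockout libraries, while the mesenchymal collagen genes split. COL1A2 had 6840 to 12954 counts in the 12 and 0 to 34 in the 6, and COL3A1 had 1582 to 3403 and 0 to 10, but COL1A1 had 54 to 259 in the 12 and 2205 to 6247 in the 6. Over the 5 Müllerian markers the summed level was 0 to 0.380 CPM in the groups without the knockout and 51.7 to 74.7 CPM in knockout groups, with MUC16 at 0 counts in every library. Over the 5 epithelial markers it was 131 to 488 CPM and 1836 to 2277 CPM, with KRT19 at 0 counts in the knockout libraries. KRT18 made 1185 to 1495 CPM and KRT8 627 to 760 CPM of the sum in the knockout. EPCAM had 157 to 266 counts there against 22 to 52 in the 12, and CDH1 had 8 to 23 against 0 to 6. The 6 fibroblast markers summed to 725 to 1118 CPM and 187 to 501 CPM, of which COL1A1 made 183 to 494 CPM in the knockout, and PDGFRB overlapped (13 to 72 and 31 to 80 counts). CD3E, a T-cell gene, was at 0 counts in every library, the 4 leukocyte markers summed to 0.497 to 2.86 CPM in the 12 and 5.24 to 8.03 CPM in the 6, where CD68, a lysosomal protein of macrophages, had 60 to 89 counts against 0 to 11, and the endothelial genes VWF and CDH5 had at most 4 counts. The labels give A1847 for all 18 libraries. With 1 knockout line, an effect of disrupting CARM1 and any other difference between that line and WT cells cannot be told apart, and this holds for every knockout value below.

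Within that background, 8 of the 10 subunits had levels in the 6 CARM1 knockout libraries that did not overlap those in the 12 others (48.7% of all genes tested did not), and SMARCA4 and SMARCB1 were the exceptions. The largest difference among these 10 was in SMARCA2, which was barely present in WT cells. Levels are comparable between libraries for a given gene, and whether they are comparable between genes was not tested.

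**Figure D1:**
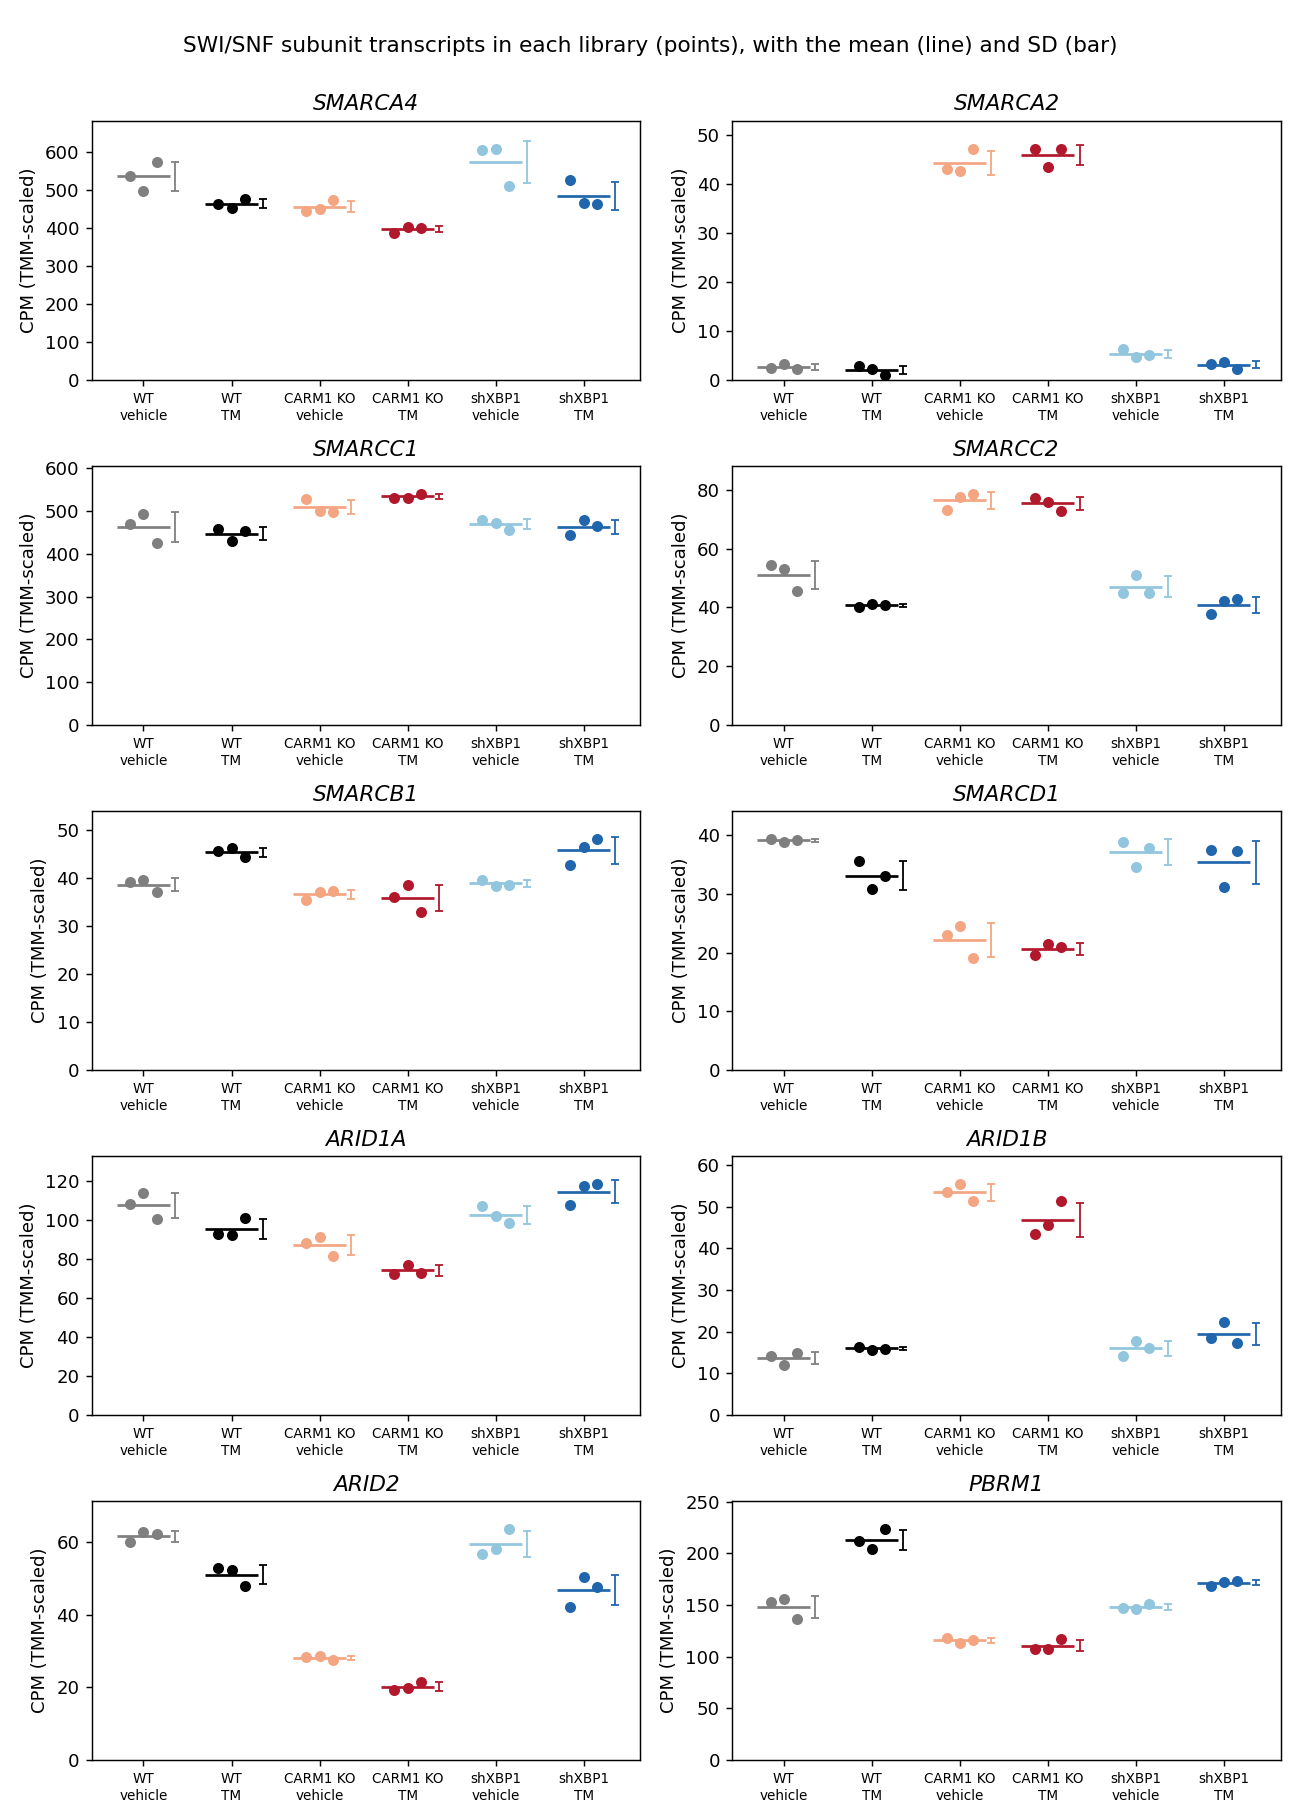
Level of each SWI/SNF subunit in CPM (y axis, starting at 0, own scale per gene) in the 6 groups (x axis), with each library as a point, the mean as a line and the SD as a bar beside it (n = 3). SMARCA2 lay between 42.8 and 47.2 CPM in the 6 knockout libraries and at no more than 6.25 CPM in the 12 others, and PBRM1 was highest in WT cells with tunicamycin.

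CARM1 knockout against WT asks which subunits differ between the line edited at CARM1 and WT cells. With vehicle, 3 of the 10 subunits were higher in knockout cells (37.5% of all genes tested were) and 5 were lower (36.9% of all genes), and 2 did not pass the test. With tunicamycin, 4 were higher (38.4% of all genes) and 6 were lower (36.8% of all genes). With vehicle these counts are near the shares among all genes, and with tunicamycin all 10 passed where 75.2% of all genes did. The median log2 fold change of the 10 was −0.20 with vehicle and −0.28 with tunicamycin, beside −0.03 and −0.02 for all genes tested. Ranges of the 3 knockout and 3 WT libraries did not overlap for 9 subunits with vehicle (75.9% of all genes) and for 10 with tunicamycin (77.1% of all genes). Scaling by library totals without TMM factors moved the median of all genes to −0.20 with vehicle and −0.18 with tunicamycin, and no called subunit changed direction under it.

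The pair of ATPases moved in opposite directions. SMARCA2 (ENSG00000080503, chromosome 9 of GRCh37, 1980290 to 2193624, plus strand) was at 2.48, 3.24 and 2.14 CPM in the WT libraries with vehicle and at 43.2, 42.8 and 47.2 CPM in the knockout libraries, behind which stood 412 to 593 counts per knockout library and 13 to 44 per WT library over both treatments. Every knockout library was far above every WT library. The log2 fold change was 4.04 (SE 0.130, edgeR adjusted p = 2.09e-13), or 16.4-fold, and with tunicamycin it was 4.55 (SE 0.171, edgeR adjusted p = 2.98e-12). SMARCA4 (ENSG00000127616, chromosome 19, 11071608 to 11190102, plus strand) was at 536, 497 and 572 CPM in WT cells with vehicle and at 444, 449 and 472 CPM in knockout cells. The ranges were close but separate. Its log2 fold change was −0.28 (SE 0.0517, edgeR adjusted p = 0.000162) with vehicle and −0.22 (SE 0.0400, edgeR adjusted p = 0.000158) with tunicamycin.

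Upstream DNA of both ATPase genes is shown because they are alternatives for 1 place in the complex and differed in opposite directions between the genotypes. The sequences are the 250 bases before the most upstream start annotated by RefSeq, in gene orientation, on GRCh38.p14. The SMARCA2 window lies at chr9:2015097-2015346 and SMARCA4 at chr19:10960780-10961029, both on the plus strand. The GENCODE gene of SMARCA2 begins at 1980290 on GRCh37, which is before this window if both builds number the region alike. DNA upstream of that GENCODE start was not searched. Capitals mark CCACG on either strand, the end of the ER stress response element at which XBP1 or ATF6 binds.
SMARCA2: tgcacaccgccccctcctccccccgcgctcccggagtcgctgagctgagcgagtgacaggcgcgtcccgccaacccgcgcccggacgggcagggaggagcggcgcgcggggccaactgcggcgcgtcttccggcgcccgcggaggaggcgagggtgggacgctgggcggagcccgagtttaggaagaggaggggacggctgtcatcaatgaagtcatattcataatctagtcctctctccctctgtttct
SMARCA4: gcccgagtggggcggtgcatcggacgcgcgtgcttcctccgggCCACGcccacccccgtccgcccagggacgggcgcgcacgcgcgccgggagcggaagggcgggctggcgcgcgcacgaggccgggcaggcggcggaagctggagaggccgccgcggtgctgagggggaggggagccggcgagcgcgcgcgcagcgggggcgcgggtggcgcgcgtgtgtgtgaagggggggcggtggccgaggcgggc
In SMARCA2 the letters were found 0 times and in SMARCA4 1 time, on the plus strand from −207 to −203 of the start. CCACG stood in 33.5% of the 35116 windows of this length in the table. The longer UPRE letters TGACGTGG, present in 0.612% of windows, were in neither sequence.

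Among the core subunits, the paralogues SMARCC1 and SMARCC2 are scaffolds that dimerize at the base of the complex. SMARCC1 (ENSG00000173473, chromosome 3, 47626759 to 47823596, minus strand), whose protein is the CARM1 substrate, was at 469, 494 and 425 CPM in WT cells with vehicle and at 528, 501 and 499 CPM in knockout cells. Its difference with vehicle did not pass the test (log2 fold change 0.09, SE 0.0526, edgeR adjusted p = 0.121), and the interval of 2 standard errors on either side ran from −0.01 to 0.20. With tunicamycin SMARCC1 stood at 458, 430 and 454 CPM in WT cells and at 532, 531 and 540 CPM in knockout cells. The knockout libraries were all higher, and the log2 fold change of 0.26 (SE 0.0398, edgeR adjusted p = 2.61e-05) passed the test. The vehicle value depended on the settings, and it passed under 5 of the 9 others. These were DESeq2's size factors (log2 fold change 0.13, edgeR adjusted p = 0.0365) and DESeq2's test (0.13, DESeq2 adjusted p = 0.0313). The rest were no filter (0.12, edgeR adjusted p = 0.0277), at least 10 counts in every library (0.15, edgeR adjusted p = 0.0169) and one fit of all libraries (0.14, edgeR adjusted p = 0.0118). Under library totals the log2 fold change was −0.08 (edgeR adjusted p = 0.187). Without WT vehicle replicate 2 the vehicle value was 0.17 (edgeR adjusted p = 0.0111).

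SMARCC2 (ENSG00000139613, chromosome 12, 56556143 to 56583351, minus strand) was at 54.6, 53.0 and 45.6 CPM in WT cells with vehicle and at 73.1, 77.7 and 78.7 CPM in knockout cells. Every knockout library was higher, and the log2 fold change was 0.54 (SE 0.0725, edgeR adjusted p = 6.45e-06) with vehicle and 0.90 (SE 0.0586, edgeR adjusted p = 2.08e-09) with tunicamycin. The 3′ end of SMARCC2 shares 719 exonic bases with MYL6, a myosin light chain gene on the opposite strand. MYL6 was also higher in the knockout, by 1.87 on the log2 scale with vehicle (SE 0.0381) and 1.92 with tunicamycin (SE 0.0392). Whether the counting kept the strands apart is not given in the sources used here, and the part of MYL6 reads in the SMARCC2 value was not tested. On the same strand, the tested gene ENSG00000258199 (56556143 to 56584068) spans SMARCC2. It was higher in the knockout by 0.61 with vehicle and 0.58 with tunicamycin on the log2 scale. Reads that it may share with SMARCC2 were not tested either.

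SMARCD1 (ENSG00000066117, chromosome 12, 50478983 to 50494490, plus strand), a core subunit that contacts other transcription factors, was at 39.4, 38.8 and 39.2 CPM in WT cells with vehicle and at 23.0, 24.6 and 19 CPM in the knockout. The highest knockout library was well below the lowest WT library. The log2 fold change was −0.85 (SE 0.0916, edgeR adjusted p = 5.09e-07) with vehicle and −0.68 (SE 0.0851, edgeR adjusted p = 3.74e-06) with tunicamycin. SMARCB1 (ENSG00000099956, chromosome 22, 24129118 to 24180196, plus strand), the core subunit lost in rhabdoid tumours, overlapped between the genotypes with vehicle, at 39.1, 39.6 and 37.1 CPM in WT and 35.4, 37 and 37.2 CPM in the knockout. Its log2 fold change there was −0.12 (SE 0.0718, edgeR adjusted p = 0.131), with an interval of 2 standard errors from −0.27 to 0.02. Under library totals this value passed the test (−0.29, edgeR adjusted p = 0.00157). With tunicamycin SMARCB1 was lower in the knockout by 0.34 on the log2 scale in size (log2 fold change −0.34, SE 0.0730, edgeR adjusted p = 0.000702), at 45.7, 46.1 and 44.3 CPM in WT and 35.9, 38.4 and 32.9 CPM in the knockout. SMARCB1 shares 2923 exonic bases with DERL3 on the opposite strand. DERL3 was also lower in the knockout, with log2 fold changes of −1.01 with vehicle and −1.13 with tunicamycin. The part of DERL3 reads in the SMARCB1 difference was not tested.

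The targeting subunits of canonical BAF also moved apart. ARID1A (ENSG00000117713, chromosome 1, 27019727 to 27108595, plus strand) was at 108, 114 and 101 CPM in WT cells with vehicle and at 88.4, 91.6 and 81.4 CPM in knockout cells. Its log2 fold change was −0.34 (SE 0.0622, edgeR adjusted p = 0.000126) with vehicle and −0.36 (SE 0.0578, edgeR adjusted p = 4.87e-05) with tunicamycin. ARID1B (ENSG00000049618, chromosome 6, 157097154 to 157531913, plus strand), its alternative in the same place, was at 14, 11.9 and 14.9 CPM in WT cells and at 53.6, 55.4 and 51.3 CPM in the knockout. The knockout libraries were all more than 3-fold above every WT library. ARID1B differed by 1.93 on the log2 scale with vehicle (SE 0.0913, edgeR adjusted p = 2.53e-11) and by 1.56 with tunicamycin (SE 0.0861, edgeR adjusted p = 2.83e-10).

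Both PBAF subunits were lower in the knockout. ARID2 (ENSG00000189079, chromosome 12, 46123489 to 46301823, plus strand) was at 60.0, 62.7 and 62.3 CPM in WT cells with vehicle and at 28.3, 28.6 and 27.5 CPM in the knockout, a log2 fold change of −1.18 (SE 0.0675, edgeR adjusted p = 2.72e-10). With tunicamycin it was −1.33 (SE 0.0778, edgeR adjusted p = 5.51e-10). PBRM1 (ENSG00000163939, chromosome 3, 52579368 to 52719933, minus strand), whose bromodomains read acetylated histones, was at 153, 155 and 136 CPM in WT cells with vehicle and at 118, 113 and 116 CPM in the knockout. Its log2 fold change was −0.40 with vehicle (SE 0.0573, edgeR adjusted p = 1.17e-05) and −0.94 with tunicamycin (SE 0.0530, edgeR adjusted p = 3.71e-10). UQCC5, a gene on the opposite strand, shares 146 exonic bases with PBRM1. UQCC5 was also lower in the knockout, at −1.07 with vehicle and −0.88 with tunicamycin on the log2 scale. GNL3, which overlaps the PBRM1 gene body with 0 shared exonic bases, was at 0.60 and 0.06. The part of UQCC5 reads in the PBRM1 difference was not tested.

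**Figure D2:**
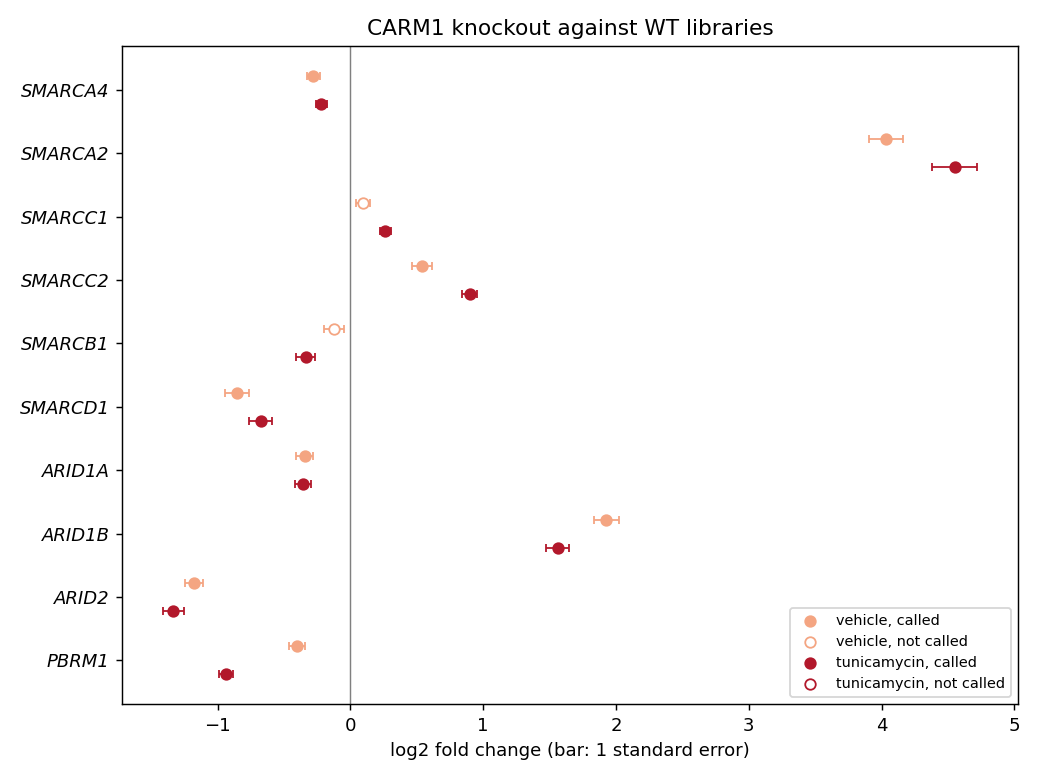
Log2 fold change of each subunit (rows) in CARM1 knockout against WT libraries, with vehicle and with tunicamycin. Bars are 1 standard error, and open points did not pass edgeR's test at an FDR of 5%. SMARCA2 and ARID1B lie far to the right at 4.04 and 1.93 with vehicle, ARID2 and SMARCD1 lie to the left at −1.18 and −0.85, and SMARCC1 lies near 0.

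Ratios of paralogous subunits within a library do not depend on the scaling between libraries. The log2 ratio of SMARCA2 to SMARCA4 counts was −7.69 ± 0.405 (SD, n = 3) in WT cells with vehicle and −3.36 ± 0.0362 in knockout cells, a 20.2-fold change in the ratio, and with tunicamycin it was −7.99 ± 0.808 and −3.11 ± 0.0849. ARID1B to ARID1A went from −2.99 ± 0.250 in WT to −0.70 ± 0.0328 in the knockout with vehicle, a 4.87-fold change, and from −2.58 ± 0.0906 to −0.67 ± 0.141 with tunicamycin. SMARCC2 to SMARCC1 went from −3.18 ± 0.0692 to −2.74 ± 0.102 with vehicle, a 1.36-fold change, and from −3.46 ± 0.0684 to −2.82 ± 0.0559 with tunicamycin. In all 3 pairs, under both treatments, no knockout library overlapped a WT library. The two-sided exact permutation test gave p = 0.1 for each of these 6 comparisons (n = 3 against 3), which is the smallest p that this design allows.

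**Figure D3:**
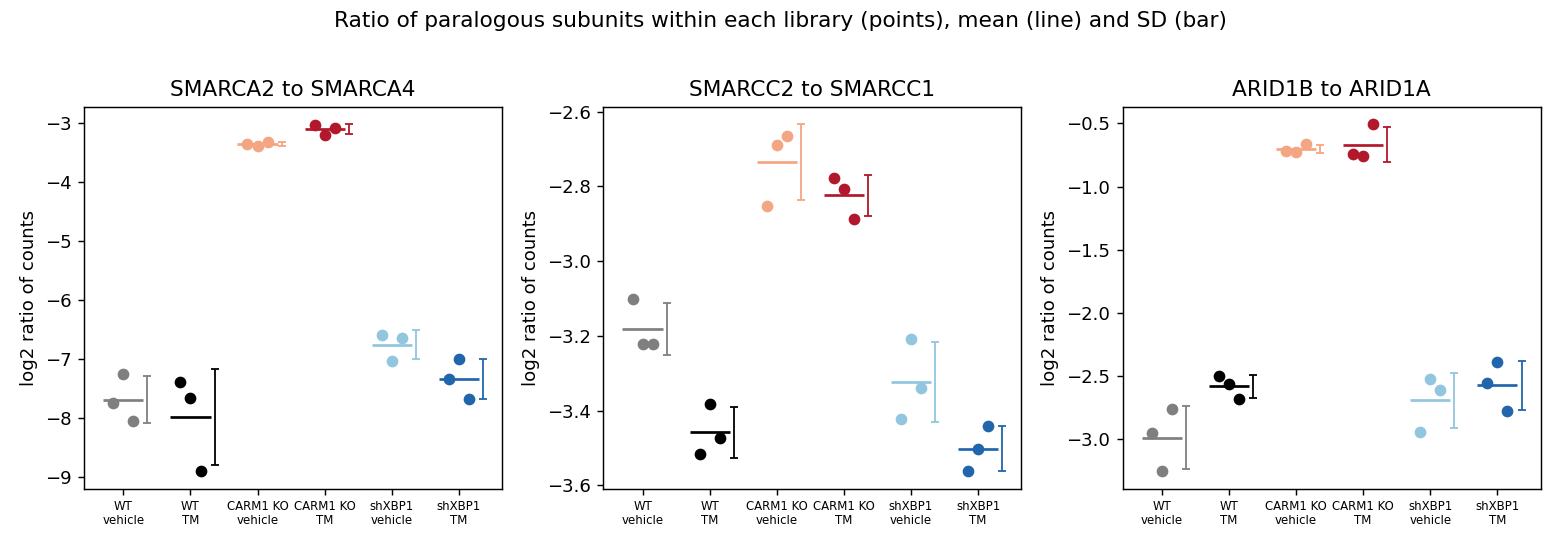
Log2 ratio of the counts of paralogous subunits in each library (points), with the mean (line) and SD (bar), in the 6 groups (n = 3). In each pair the 6 knockout libraries lie above the 12 others, by the widest margin for SMARCA2 to SMARCA4, where the WT mean with vehicle is −7.69 and the knockout mean −3.36.

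Genes beside the subunits were looked at because CARM1 ends 37.9 kb before the start of SMARCA4 on the same strand of chromosome 19. Among the 65 other genes tested within 1 Mb of SMARCA4, 25 were higher and 20 lower in the knockout with vehicle, and their median log2 fold change was 0.08, beside −0.28 for SMARCA4. YIPF2, which overlaps the end of CARM1 on the opposite strand, was higher by 2.37 on the log2 scale. ARID1B had 9 neighbours with a median of −0.45, against its own 1.93. SMARCA2 had 4 neighbours with a median of 0.28, of which 1 was higher, against its own 4.04. PBRM1 also went against its neighbours: 23 of 35 were higher and 4 lower, with a median of 0.45. SMARCB1 lay among lower genes, with 21 of 31 lower and a median of −0.78, and ARID2 had 7 neighbours with a median of −0.85. For SMARCC2 the median was 0.44 over 57 neighbours, for SMARCC1 0.39 over 39, for ARID1A 0.40 over 42 and for SMARCD1 −0.05 over 32. All these values are with vehicle. With tunicamycin the ARID2 neighbours had a median of −0.07 (2 of 7 lower), against −1.33 for ARID2. The other medians were −0.06 for ARID1B, −0.30 for SMARCA2, −0.63 for SMARCB1, −0.01 for SMARCD1 and 0.16 for SMARCA4. They were 0.35 for PBRM1, 0.46 for SMARCC2, 0.33 for SMARCC1 and 0.37 for ARID1A.

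**Figure D4:**
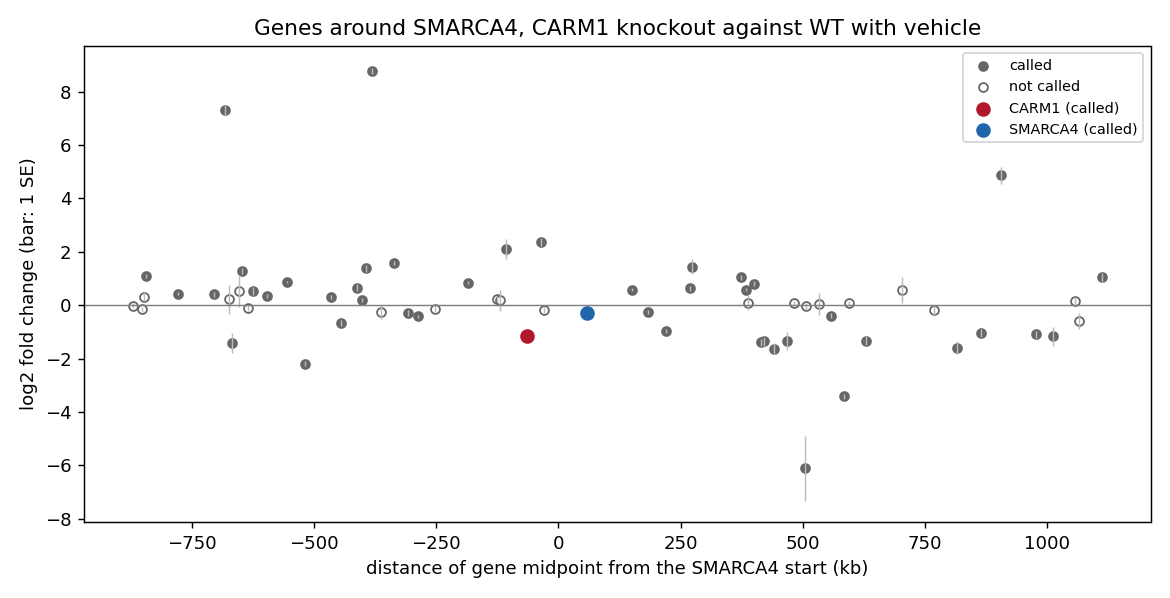
Log2 fold change in CARM1 knockout against WT cells with vehicle (y axis, bars 1 SE) of genes tested within 1 Mb of SMARCA4, by the distance of each gene's midpoint from the SMARCA4 start in kb (x axis). CARM1 and SMARCA4 are coloured, and open points did not pass the test. Genes on both sides moved in both directions, and SMARCA4 lies close to 0 at −0.28.

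Tunicamycin against vehicle asks how ER stress moves the subunits in each genotype, and these 3 comparisons share no libraries. In WT cells 2 subunits were higher (22% of all genes tested were) and 4 were lower (19.9% of all genes). In knockout cells 1 was higher (20.6% of all genes) and 3 were lower (18.8% of all genes). In shXBP1 cells 2 were higher (19.2% of all genes) and 4 were lower (19% of all genes). The median of the 10 was −0.18, −0.05 and −0.05 on the log2 scale in the 3 genotypes, beside 0 for all genes, and apart from SMARCA2 no subunit changed by more than the 1.45-fold of PBRM1 in WT cells. Of all calls in WT cells 52.5% were higher, and 41.3% were when scaled by library totals. In knockout cells these shares were 52.3% and 41.5%. Ranges with and without tunicamycin did not overlap for 7 subunits in WT cells, 5 in knockout cells and 6 in shXBP1 cells, where 49.8%, 48.4% and 47.4% of all genes did not.

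In WT cells PBRM1 had the largest change among the 6 subunits that passed the test. It rose from 153, 155 and 136 CPM with vehicle to 212, 204 and 224 CPM with tunicamycin, a gap wider than the spread of either group (log2 fold change 0.54, SE 0.0628, edgeR adjusted p = 3.09e-06). Knockout cells showed no such gap, at 118, 113 and 116 CPM with vehicle and 108, 107 and 117 CPM with tunicamycin. The log2 fold change there was −0.03 (SE 0.0465, edgeR adjusted p = 0.686), with an interval of 2 standard errors from −0.12 to 0.07. In shXBP1 cells PBRM1 rose from 147, 146 and 151 CPM to 169, 172 and 173 CPM (log2 fold change 0.20, SE 0.0461, edgeR adjusted p = 0.00234). GNL3, a nucleolar GTPase gene on the opposite strand whose gene body overlaps that of PBRM1 with 0 shared exonic bases, rose with tunicamycin by 0.97 in WT, 0.41 in knockout and 0.49 in shXBP1 cells on the log2 scale. UQCC5, which shares 146 exonic bases with PBRM1, fell by 0.52, 0.36 and 0.64.

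Whether the response of PBRM1 differed between genotypes was tested as an interaction. Knockout cells responded less than WT cells by 0.58 on the log2 scale (interaction −0.58, SE 0.0807, edgeR adjusted p = 1.94e-05), and the term passed the test under every alternative run and with each library left out, from −0.62 to −0.46. The interaction with shXBP1 was −0.33 (SE 0.0772, edgeR adjusted p = 0.0284). That call was lost with the replicate block (−0.33, edgeR adjusted p = 0.0644), under library totals (−0.29, edgeR adjusted p = 0.0553) and under upper-quartile factors (−0.28, edgeR adjusted p = 0.0809). It was also lost without WT tunicamycin replicate 1 or 3, without shXBP1 vehicle replicate 2 or 3, and without any 1 of the 3 shXBP1 tunicamycin libraries. Over all 12 libraries left out one at a time the term ranged from −0.36 to −0.27 and the edgeR adjusted p from 0.0209 to 0.110. GNL3 had interactions of −0.58 (SE 0.0687) and −0.48 (SE 0.0721) in the same 2 fits.

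SMARCB1 was the other subunit that rose in WT cells. It went from 39.1, 39.6 and 37.1 CPM with vehicle to 45.7, 46.1 and 44.3 CPM with tunicamycin, without overlap (log2 fold change 0.25, SE 0.0720, edgeR adjusted p = 0.0113). In shXBP1 cells it went from 39.6, 38.4 and 38.5 CPM to 42.7, 46.4 and 48.1 CPM (log2 fold change 0.23, SE 0.0700, edgeR adjusted p = 0.0183), and in knockout cells the groups overlapped (log2 fold change 0.01, SE 0.0748, edgeR adjusted p = 0.970). The call for SMARCB1 was lost in WT cells under library totals (0.15, edgeR adjusted p = 0.103) and upper-quartile factors (0.18, edgeR adjusted p = 0.0533). In shXBP1 cells it was lost under library totals (0.17, edgeR adjusted p = 0.0625), without vehicle replicate 2 (0.22, edgeR adjusted p = 0.0618) and without tunicamycin replicate 3 (0.19, edgeR adjusted p = 0.0823). SMARCB1 shares 2923 exonic bases with DERL3, a gene of ER-associated degradation on the opposite strand. DERL3 rose with tunicamycin by 4.45 on the log2 scale in WT cells, by 4.30 in knockout cells and by 3.36 in shXBP1 cells. The part of DERL3 reads in the SMARCB1 value was not tested. The interaction of SMARCB1 with the knockout was −0.26 (SE 0.0989, edgeR adjusted p = 0.0664). It passed in one fit of all libraries (−0.26, edgeR adjusted p = 0.0481) and without knockout tunicamycin replicate 2 (−0.32, edgeR adjusted p = 0.0362).

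Upstream DNA of PBRM1 and SMARCB1 is shown because these 2 subunits rose with tunicamycin in both WT and shXBP1 cells. The windows are again the 250 bases before the most upstream start from RefSeq on GRCh38.p14, in gene orientation, at chr3:52685914-52686163 on the minus strand and chr22:23786716-23786965 on the plus strand, with CCACG on either strand in capitals.
PBRM1: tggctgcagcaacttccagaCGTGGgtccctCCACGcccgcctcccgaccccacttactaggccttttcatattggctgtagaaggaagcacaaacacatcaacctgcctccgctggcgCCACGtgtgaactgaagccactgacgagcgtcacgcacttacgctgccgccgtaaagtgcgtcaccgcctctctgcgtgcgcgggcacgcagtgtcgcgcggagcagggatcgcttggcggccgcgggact
SMARCB1: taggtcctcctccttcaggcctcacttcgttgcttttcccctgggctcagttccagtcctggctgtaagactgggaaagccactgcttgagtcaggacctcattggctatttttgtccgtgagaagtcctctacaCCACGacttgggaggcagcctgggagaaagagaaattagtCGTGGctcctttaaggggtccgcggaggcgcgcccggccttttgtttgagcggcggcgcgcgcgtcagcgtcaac
PBRM1 held the letters 3 times and SMARCB1 2 times. CCAAT, the other end of the stress element, was in both on the minus strand and stood in 32.0% of all windows. The full element, CCAAT and CCACG 9 bases apart, was in neither sequence and in 0.0740% of all windows, and TGACGTGG was in neither. Of the 10 subunits 7 had an entry in the table, and CCACG stood in 7 of their 13 annotated starts.

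ARID2 and SMARCA4 were lower with tunicamycin in all 3 genotypes. ARID2 fell from 60.0, 62.7 and 62.3 CPM to 52.9, 52.3 and 48.0 CPM in WT cells, from 28.3, 28.6 and 27.5 to 19.1, 19.8 and 21.5 CPM in knockout cells, and from 56.7, 58.1 and 63.6 to 42.2, 50.5 and 47.7 CPM in shXBP1 cells. No vehicle library overlapped a tunicamycin library in any genotype. The log2 fold changes were −0.26, −0.45 and −0.36 (edgeR adjusted p = 0.00544, 0.000185 and 0.00132), and the interactions did not pass the test (−0.20 for the knockout, edgeR adjusted p = 0.154, and −0.09 for shXBP1, edgeR adjusted p = 0.789). SMARCA4 fell to 462, 451 and 474 CPM in WT cells, to 387, 401 and 399 CPM in knockout cells and to 525, 464 and 461 CPM in shXBP1 cells, from 603, 607 and 508 CPM in the last. The shXBP1 groups overlapped and the others did not. Its log2 fold changes were −0.20, −0.17 and −0.25 (edgeR adjusted p = 0.0101, 0.000659 and 0.00601). Without shXBP1 tunicamycin replicate 3 the last value was −0.22 (edgeR adjusted p = 0.0504).

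The scaffold SMARCC2 fell with tunicamycin in WT cells from 54.6, 53.0 and 45.6 to 40.0, 41.2 and 40.9 CPM (log2 fold change −0.31, SE 0.0802, edgeR adjusted p = 0.00446) and in shXBP1 cells by 0.21 on the log2 scale (edgeR adjusted p = 0.0410). In knockout cells it was at 73.1, 77.7 and 78.7 CPM with vehicle and 77.5, 75.9 and 73.0 CPM with tunicamycin, which overlap. The interaction with the knockout was 0.31 (SE 0.0948, edgeR adjusted p = 0.0208), which became 0.28 without knockout vehicle replicate 1 (edgeR adjusted p = 0.0630) and 0.29 without knockout tunicamycin replicate 1 (edgeR adjusted p = 0.0507). The shXBP1 call was lost by DESeq2 and without vehicle replicate 2 or any 1 tunicamycin library, with values from −0.25 to −0.15 over the libraries left out. SMARCC1 was nearly level, with log2 fold changes of −0.04 in WT and −0.03 in shXBP1 cells, neither of which passed the test, and 0.10 in knockout cells (SE 0.0328, edgeR adjusted p = 0.0141). That call was lost without knockout vehicle replicate 2 or 3 or tunicamycin replicate 3, where the value was 0.08 to 0.10, and it was 0.04 under library totals, 0.06 under upper-quartile factors and 0.07 in one fit of all libraries, none of which passed. Intervals of 2 standard errors for SMARCC1 lay between −0.15 and 0.17 in all 3 genotypes. The interaction of SMARCC1 with the knockout did not pass the test (0.12, SE 0.0693, edgeR adjusted p = 0.232). It passed without a filter (0.19, edgeR adjusted p = 0.0398) and with at least 10 counts in every library (0.18, edgeR adjusted p = 0.0498). It also passed without WT vehicle replicate 3 (0.25, edgeR adjusted p = 0.00575) or WT tunicamycin replicate 1 (0.22, edgeR adjusted p = 0.0417). SMARCD1 fell by 0.23 in WT cells (edgeR adjusted p = 0.0294), and its values were −0.08 in knockout and −0.07 in shXBP1 cells, short of the test. The WT call was lost by DESeq2 and without any 1 library but tunicamycin replicate 1, with values from −0.30 to −0.18.

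ARID1A, the canonical BAF subunit, was lower with tunicamycin in knockout cells, at 72.5, 77.1 and 72.8 CPM against 88.4, 91.6 and 81.4 CPM with vehicle (log2 fold change −0.20, SE 0.0522, edgeR adjusted p = 0.00376). In WT cells its log2 fold change was −0.16 (edgeR adjusted p = 0.0621) and in shXBP1 cells 0.15 (edgeR adjusted p = 0.0502). The WT value passed under library totals (−0.25, edgeR adjusted p = 0.00444), under upper-quartile factors (−0.22, edgeR adjusted p = 0.0133), with either other filter, in one fit of all libraries, and without vehicle replicate 3 or tunicamycin replicate 3. The shXBP1 value passed under DESeq2's size factors, with at least 10 counts in every library, in one fit of all libraries, and without vehicle replicate 1 or tunicamycin replicate 1. ARID1B had log2 fold changes of 0.24, −0.16 and 0.27 in WT, knockout and shXBP1 cells, none of which passed the test. The knockout value passed under library totals (−0.22, edgeR adjusted p = 0.0123) and upper-quartile factors (−0.20, edgeR adjusted p = 0.0196). It also passed with at least 10 counts in every library (−0.17, edgeR adjusted p = 0.0341) and without tunicamycin replicate 3 (−0.23, edgeR adjusted p = 0.0147). The shXBP1 value passed in one fit of all libraries (0.27, edgeR adjusted p = 0.0459). The interaction of ARID1B with the knockout passed the test (−0.41, SE 0.127, edgeR adjusted p = 0.0215). That call was lost without WT vehicle replicate 1 or 2, any 1 WT tunicamycin library, knockout vehicle replicate 2 or knockout tunicamycin replicate 1, and over the 12 libraries left out the term ranged from −0.49 to −0.26. SMARCA2 fell in shXBP1 cells from 6.25, 4.61 and 5.06 CPM to 3.24, 3.60 and 2.23 CPM (log2 fold change −0.81, SE 0.223, edgeR adjusted p = 0.00869), and without shXBP1 vehicle replicate 1 this was −0.68 (edgeR adjusted p = 0.0514). In WT cells its value was −0.39 with a standard error of 0.333, at a level where few counts limit the test.

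**Figure D5:**
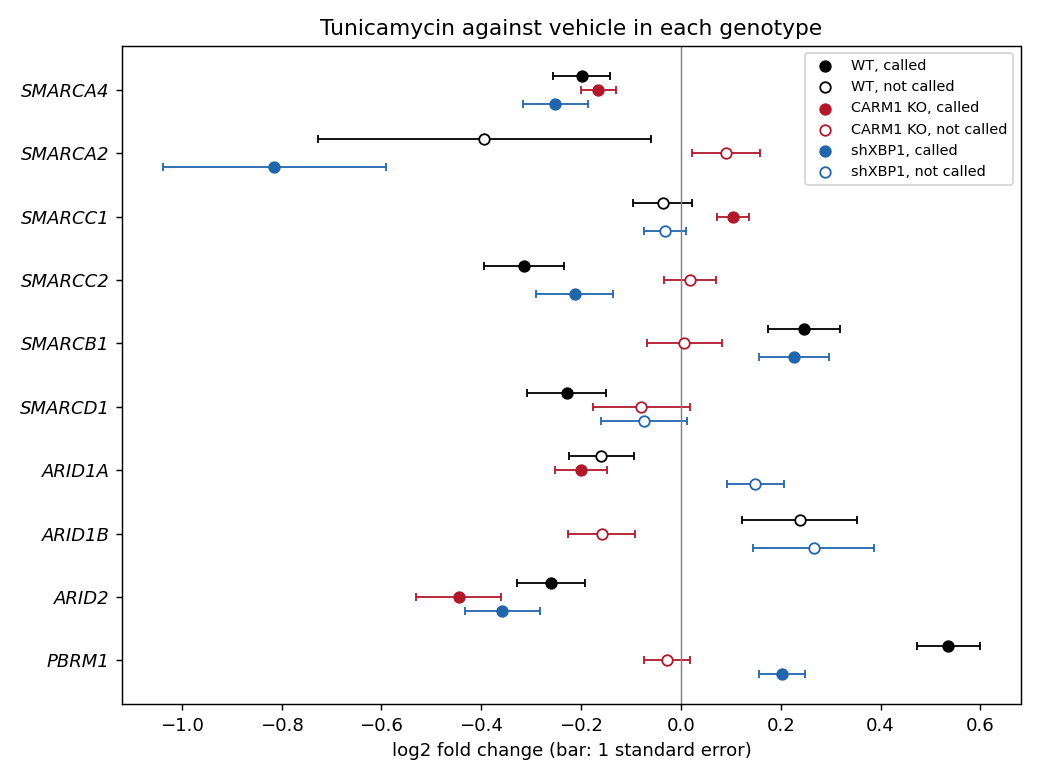
Log2 fold change of each subunit (rows) with tunicamycin against vehicle in WT, CARM1 knockout and shXBP1 cells. Bars are 1 standard error, and open points did not pass edgeR's test at an FDR of 5%. PBRM1 lies at 0.54 in WT, 0.20 in shXBP1 and −0.03 in knockout cells, and ARID2 and SMARCA4 lie left of 0 in all 3 genotypes.

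Counted over the 10 subunits, the interaction with the knockout was positive and called for 1 subunit, SMARCC2 (10.5% of all genes), and negative and called for 2, PBRM1 and ARID1B (12.4% of all genes). With shXBP1 it was positive for 0 subunits in edgeR (0.364% of all genes), where 1, ARID1A, had an unadjusted p under 0.05, passed under 6 of the 9 other settings, DESeq2 among them, and passed without WT vehicle replicate 3 or shXBP1 tunicamycin replicate 1, and negative for 1, PBRM1 (1.67% of all genes). Of all calls of that last interaction 17.8% were positive, and 31.7% were with upper-quartile scaling.

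XBP1 knockdown against WT asks which subunits move when the stress factor is reduced. With vehicle, 1 subunit was higher (2.07% of all genes tested were) and 0 were lower (3.03% of all genes), the latter also 0 by DESeq2 and 0 at an unadjusted p under 0.05 in edgeR. SMARCA2 was that subunit, at 6.25, 4.61 and 5.06 CPM in shXBP1 cells against 2.48, 3.24 and 2.14 CPM in WT cells. The groups did not overlap, and the log2 fold change was 1.01 (SE 0.217, edgeR adjusted p = 0.0138), which became 0.98 without WT vehicle replicate 1 (edgeR adjusted p = 0.0550) and 0.88 without shXBP1 vehicle replicate 1 (edgeR adjusted p = 0.0651). SMARCC1 and PBRM1 were close to WT, with log2 fold changes of 0.02 and −0.01 and intervals of 2 standard errors from −0.09 to 0.13 and from −0.13 to 0.11. With tunicamycin, 1 subunit was higher (6.99% of all genes) and 1 was lower (8.55% of all genes). ARID1A was higher, at 108, 117 and 119 CPM in shXBP1 cells against 92.6, 92.4 and 101 CPM in WT cells (log2 fold change 0.26, SE 0.0600, edgeR adjusted p = 0.00728). PBRM1 was lower, at 169, 172 and 173 CPM against 212, 204 and 224 CPM (log2 fold change −0.31, SE 0.0502, edgeR adjusted p = 0.000480). Ranges did not overlap for 1 subunit with vehicle (23.6% of all genes) and 3 with tunicamycin (31.5% of all genes), the third being ARID1B, whose log2 fold change of 0.28 did not pass the test (edgeR adjusted p = 0.119).

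In the order of group means, PBRM1 was lowest in the 2 knockout groups, which overlapped, then at a like level in WT and shXBP1 cells with vehicle, which also overlapped, then higher in shXBP1 cells with tunicamycin and highest in WT cells with tunicamycin. For SMARCA2 the 2 knockout groups were highest and overlapped, shXBP1 cells with vehicle came next without overlapping any other group, and the 3 remaining groups overlapped one another.

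Of the 21 other SWI/SNF subunits listed, 19 were tested. In the knockout with vehicle 6 were higher (37.5% of all genes) and 10 lower (36.9% of all genes), with a median log2 fold change of −0.29. In the knockout with tunicamycin 6 were higher (38.4% of all genes) and 8 lower (36.8% of all genes), with a median of 0.03. BCL11A, a zinc finger subunit, had 247 to 358 counts in knockout cells with vehicle and 0 to 5 in WT cells, and DPF3, a reader of histone marks, had 26 to 38 and 0 to 1. ACTB, the β-actin that is also a subunit, was higher by 1.2 with vehicle and 0.97 with tunicamycin. BICRAL and SMARCD3 were lower by 1.89 and 1.48 in size with vehicle (log2 fold changes −1.89 and −1.48) and by −1.09 and −1.34 on the log2 scale with tunicamycin. SMARCD2 was at −1.04 with vehicle and PHF10, a PBAF subunit, at −1.30 with tunicamycin. SMARCD1 and both of its paralogues were thus lower in the knockout with vehicle. BRD7, also of PBAF and not among the largest changes, did not go down with ARID2, PBRM1 and PHF10. With vehicle BRD7 was at 265 to 276 CPM in knockout and 265 to 279 CPM in WT cells. With tunicamycin it was at 291 to 302 and 227 to 248 CPM.

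With tunicamycin, 2 of those 19 were higher and 5 lower in WT cells, 4 and 5 in knockout cells, and 2 and 4 in shXBP1 cells. DPF2 was higher in each genotype, by 0.23, 0.23 and 0.44, and SS18 was higher by 0.47 in WT and 0.52 in shXBP1 cells. BCL7A was at −0.61 in WT and −0.31 in shXBP1 cells, and DPF1 was at −0.50 in WT and −0.47 in knockout cells. SMARCD2 was at −0.47 in WT cells, SS18L1 at −0.52 and BCL7C at −0.37 in shXBP1 cells. Only the largest changes in each genotype are named by rule, and BCL7C also fell in WT cells (−0.39) and SMARCD2 in shXBP1 cells (−0.30). In knockout cells DPF3 was at −0.71, ACTB at −0.37, BICRAL at 0.64 and BRD7, a bromodomain subunit of PBAF, at 0.16. Between shXBP1 and WT cells with vehicle 0 of the 19 passed edgeR's test or DESeq2's, where 2 higher and 3 lower had an unadjusted p under 0.05 in edgeR. Of all genes 2.07% were higher and 3.03% lower there. With tunicamycin SMARCD2 and BCL7A were higher by 0.37 and 0.30 (6.99% of all genes were higher).

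Of 15 ATPases of other remodellers, 13 were lower (36.9% of all genes) and 0 higher (37.5% of all genes) in the knockout with vehicle by edgeR. Their median log2 fold change was −0.54. By DESeq2, and at an unadjusted p under 0.05 in edgeR, 0 were higher too. In the knockout with tunicamycin 11 were lower (36.8% of all genes) and 1 higher (38.4% of all genes), with a median of −0.52. HELLS was the most changed, at −1.90 and −1.88. With tunicamycin HELLS fell in WT, knockout and shXBP1 cells, by 0.66, 0.67 and 0.63, and CHD2 rose by 0.65, 0.45 and 0.84. For the 6 genes of PRC2, the Polycomb methyltransferase whose action SWI/SNF opposes, 2 were higher and 3 lower in the knockout with vehicle and 3 and 3 with tunicamycin. The shares of all genes are those just given. RBBP4 was at −0.92 and −1.21 there, and at −0.33 in shXBP1 against WT cells with tunicamycin. EZH2, its catalytic subunit, rose with tunicamycin by 0.86 in WT, 0.43 in knockout and 0.89 in shXBP1 cells, and EED fell by 0.40, 0.54 and 0.36.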

How the data were processed

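RNA was measured in 18 libraries of transcript 3′ ends (Lexogen kit), read as single ends of 75 nt. Alignment was to hg19 with bowtie2, and the authors deposited RSEM expected counts per Ensembl gene, held as whole numbers without normalization. RSEM is version 1.2.12 in the study's methods and 1.2.3 in the submitters' processing notes, and strand use is not given in the sources used here. Totals of 9367462 to 13917212 counts per library limit mainly genes of low level, and precision was taken from replicates. The labels do not say that replicates were separate cultures, so p-values measure the spread between these samples, which may be technical.

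Counts were tested in R 4.3.3 with edgeR 4.0.16 (filterByExpr at a minimum count of 10, TMM, quasi-likelihood F test), on the libraries of the groups compared, with Benjamini-Hochberg adjustment over all 17317 genes and calls at an FDR of 5%. There were 7 group pairs and 2 interactions. Standard errors (SE) are of the log2 fold change. CPM is the count scaled to library size with TMM factors, and correlations used log2 CPM with a prior count of 2. Paralogue ratios used the exact two-sided permutation test. All 10 subunits are named throughout, and of the other subunits up to 3 called in each direction per comparison, plus 1 other remodeller and 1 PRC2 gene, with CARM1, XBP1 and HSPA5 as checks of the labels. Subunits and lists were chosen with earlier results of these data known. Positions are GENCODE genes on GRCh37, and upstream sequences are RefSeq on GRCh38.p14. The motifs and the overlapping genes were chosen after the values were seen. Alternatives were DESeq2 1.42.0, other scalings, filters and thresholds, one fit of all libraries, a replicate block and each library left out. Scripts were tested on simulated data.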

Additional observations from a re-analysis of the deposited data

Results flagged for a closer look

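Each interaction below compares the tunicamycin response of a modified line with that of WT cells and passed edgeR's quasi-likelihood test with Benjamini-Hochberg adjustment. No group has more than 3 libraries, so single libraries were not screened as outliers. Among the subunits, the interaction with the CARM1 knockout was −0.58 for PBRM1 (edgeR adjusted p = 1.94e-05), −0.41 for ARID1B (edgeR adjusted p = 0.0215) and 0.31 for SMARCC2 (edgeR adjusted p = 0.0208). ARID1B passed the test in neither genotype taken alone, and its interaction was lost without a filter and in 7 of 12 fits with a library left out. That of SMARCC2 was lost in 2 of 12. The interaction with XBP1 knockdown was −0.33 for PBRM1 (edgeR adjusted p = 0.0284), which was lost with the replicate block (edgeR adjusted p = 0.0644), under library totals and upper-quartile factors, and in 7 of 12 fits with a library left out.

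Of the other SWI/SNF subunits, the knockout interaction was −0.28 for ACTB, −0.31 for PHF10, 0.34 for BRD7, 0.76 for BICRAL and 0.43 for BCL7A. It was 0.60 for SRCAP, the ATPase of another remodeller, and −0.45 for EZH2 of PRC2. The stress genes XBP1 and HSPA5 had knockout interactions of 0.37 and 0.67. With XBP1 knockdown, RBBP4 of PRC2 had an interaction of −0.36.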

How the results depend on the processing

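Of the 90 subunit values tested, 41 passed, and 29 of these passed under every alternative run. The other 12 lost the call under at least 1 (11 if the FDR of 1% is set aside), 10 values that had not passed did so under at least 1, and 0 called values changed sign, while 51 alternative values changed sign where neither value had passed. At an FDR of 1% the number of subunits called was 3 for tunicamycin in WT cells, 0 for shXBP1 against WT with vehicle, 1 for the knockout interaction and 0 for the shXBP1 interaction. The shXBP1 interaction was called for 2 subunits under DESeq2, without a filter, with at least 10 counts in every library and in one fit of all libraries, ARID1A being the added one in each, and under library totals or upper-quartile factors the 1 called was ARID1A in place of PBRM1. With each library left out, the subunits called numbered 5 to 6, 3 to 4 and 3 to 6 for tunicamycin in WT, knockout and shXBP1 cells, 8 to 9 and 10 to 10 for the knockout with vehicle and tunicamycin, 0 to 1 and 2 to 2 for shXBP1, and 1 to 4 and 0 to 2 for the interactions. Replicate numbers did not pair the samples, since deviations of same-numbered libraries correlated between −0.0480 and 0.0387. With the replicate block the shXBP1 interaction was called for 0 subunits, and the counts of the other comparisons moved by less than 1.5 times. Over all genes, shXBP1 against WT with vehicle gave 883 calls, 377 at an FDR of 1%, 1433 without a filter, 1420 in one fit of all libraries, and 435 to 1234 with a library left out. With tunicamycin it gave 2691, 1346 at an FDR of 1% and 1523 and 1743 without WT or shXBP1 tunicamycin replicate 3, and the shXBP1 interaction gave 353, 167 at an FDR of 1% and 758 without a filter.

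Within 3 Mb in place of 1 Mb, the median log2 fold change of the neighbours in the knockout with vehicle became −0.31 for ARID1B, −0.38 for ARID2, 0.35 for PBRM1, −0.10 for SMARCA4, −0.50 for SMARCB1, 0.27 for SMARCC1 and −0.0188 for SMARCC2, and with tunicamycin 0.0115 for SMARCA4, −0.33 for SMARCB1 and 0.0400 for SMARCC2. The causes of these changes were not tested. Low counts limit SMARCA2 in WT and shXBP1 cells.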
